A study of Mus musculus with 6 samples.

Results

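Cd93, Selenbp1, Etnk2, Grin1 and Tifab were examined as 5 of the 38924 gene rows of an RNA-seq table from mouse CD4+ T cells. They were chosen by their levels: each was over 10-fold lower with the kinase inhibitor CX-4945 than with DMSO by mean CPM, the exon reads placed at a single locus per 1000000 such reads of the library, and fitted no larger gene family. Since these same libraries served the choice, the drop itself is a description and carries no test. Naive CD4+ T cells from the spleens of C57 BL/6 mice were in all 6 cases cultured for 72 h with antibodies to CD3 and CD28 plus IL-6, IL-23 and TGFb1, the mixture that drives Th17 differentiation. The 3 CX-4945 cultures (libraries 2, 4 and 6 of the deposited table) received the inhibitor of protein kinase CK2, at a labelled dose of 2 mM whose unit could not be checked. The 3 DMSO cultures (libraries 1, 3 and 5) received the solvent. The cultures are described as biological replicates, but whether they came from separate mice is not stated, so p-values measure only the spread between these libraries, which may be partly technical. The inhibitor was given to whole cultures, and in such bulk RNA fewer cells that express a gene and less RNA per cell cannot be told apart.

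The 5 genes share no pathway. CD93 is a transmembrane C-type lectin-like receptor best known from endothelial and myeloid cells, where it takes part in adhesion and in the clearance of dying cells. SELENBP1 is a methanethiol oxidase, a cytosolic enzyme of sulfur metabolism that was named for binding selenium. ETNK2 is an ethanolamine kinase, which starts the pathway that makes phosphatidylethanolamine from free ethanolamine. GRIN1 is the obligatory GluN1 subunit of the NMDA receptor, a glutamate-gated cation channel of neurons that needs GluN2 or GluN3 partners. TIFAB is a relative of the adaptor TIFA that restrains signalling through the ubiquitin ligase TRAF6 in blood cells.

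Depth was similar in both groups, at 22178614 to 26148189 unique exon reads per CX-4945 library and 24150828 to 24650050 per DMSO library. The floor set by 3 reads stood at 0.112 to 0.133 CPM. The edgeR test covered 12502 genes and called 61.9% of them at an adjusted p under 0.05, with 30.6% higher and 31.3% lower under CX-4945. A drop of over 10-fold by mean CPM was seen for 35 of them (0.28%), and the 5 genes ranked 8, 13, 14, 17 and 19 by its size. DMSO libraries 3 and 5 were the most unlike pair within a group (chi-square over degrees of freedom 27.7, against 3.92 to 13.0 between the other pairs).

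Cd93 (chromosome 2, 148436640 to 148443563, minus strand, mm10) had 0.645, 0.707 and 1.39 CPM in CX-4945 libraries 2, 4 and 6, against 24.4, 19.5 and 30.9 CPM in DMSO libraries 1, 3 and 5. The groups were far apart: the lowest DMSO library was 14.1 times the highest CX-4945 library. Its mean was 0.912 ± 0.411 CPM with CX-4945 and 25.0 ± 5.71 CPM with DMSO (SD, n = 3 each), 27.4-fold lower with the inhibitor. Behind these values stood 69 reads over the CX-4945 libraries and 1782 over the DMSO libraries. Library 6 held 37 of the 69 CX-4945 reads. Of the 50-base stretches of the Cd93 transcript, 0.709% occur also in other genes.

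Selenbp1 (chromosome 3, 94933056 to 94944758, plus strand) had 3.59, 3.36 and 5.88 CPM in CX-4945 libraries 2, 4 and 6, against 78.1, 54.2 and 108 CPM in DMSO libraries 1, 3 and 5. The group means were 4.28 ± 1.39 CPM with CX-4945 and 80.0 ± 26.7 CPM with DMSO (SD, n = 3 each), 18.7-fold lower with the inhibitor. Here too every CX-4945 library lay below every DMSO library.

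Selenbp1 has a near-identical neighbour, Selenbp2 (chromosome 3, 94693556 to 94704413), which limits what its reads can show. The longest protein-coding transcripts of the pair were 98.5% identical, with 25 substitutions over 1712 aligned bases. Of the 50-base stretches in the annotated transcripts, 46.3% of those in Selenbp1 occurred also in Selenbp2, and 43.9% of those in Selenbp2 occurred also in Selenbp1. The CPM values leave out reads that such stretches cannot place. Reads found in Selenbp2 alone were few, at 0, 0 and 0 in CX-4945 libraries 2, 4 and 6 and 4, 2 and 2 in DMSO libraries 1, 3 and 5. Those found in Selenbp1 alone numbered 89, 76 and 157 with CX-4945 and 1869, 1298 and 2537 with DMSO. Among reads that tell the genes apart, nearly all thus belonged to Selenbp1 in each library.

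The upstream sequences of the pair are shown because both genes start from closely similar promoters while nearly all distinguishable reads came from Selenbp1. The 2 runs give the 250 bases before the RefSeq start (GRCm38.p6, plus strand), chr3:94932833-94933082 for Selenbp1 and chr3:94693323-94693572 for Selenbp2. These RefSeq starts lie beyond the gene starts given above, 94933056 and 94693556, so each run ends inside the gene as located there. Capitals mark the bases that differ in their alignment.
Selenbp1: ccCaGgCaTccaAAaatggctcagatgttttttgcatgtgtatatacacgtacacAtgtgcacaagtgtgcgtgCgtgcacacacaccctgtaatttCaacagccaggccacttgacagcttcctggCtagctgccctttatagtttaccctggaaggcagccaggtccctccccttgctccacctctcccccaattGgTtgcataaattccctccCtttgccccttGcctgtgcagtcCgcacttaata
Selenbp2: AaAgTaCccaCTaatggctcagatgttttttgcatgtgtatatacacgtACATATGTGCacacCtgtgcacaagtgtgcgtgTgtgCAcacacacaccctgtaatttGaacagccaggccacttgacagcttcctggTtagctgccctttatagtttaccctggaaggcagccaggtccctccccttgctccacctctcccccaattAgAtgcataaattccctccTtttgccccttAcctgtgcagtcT
Over the aligned part 89.2% of positions were identical, with 15 substitutions and 12 gap positions. Neither run held the STAT element TTCNNNGAA or the nuclear receptor half-site AGGTCA on either strand. Both held ACGTG, a form of the core of the hypoxia response element, 1 time. Other forms of that core were not searched.

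Etnk2 (chromosome 1, 133363572 to 133380336, plus strand) had 0.282, 0.530 and 0.299 CPM in CX-4945 libraries 2, 4 and 6, against 6.60, 3.38 and 10.2 CPM in DMSO libraries 1, 3 and 5. It had 27 reads in all with CX-4945, so the order of those 3 libraries rests on 7, 12 and 8 reads. The means were 0.371 ± 0.139 CPM with CX-4945 and 6.72 ± 3.40 CPM with DMSO (SD, n = 3 each), 18.1-fold lower with the inhibitor. The DMSO libraries differed 3.01-fold among themselves, the widest such range of the 5 genes.

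Grin1 (chromosome 2, 25291181 to 25319187, minus strand) had 0.806, 0.309 and 0.749 CPM in CX-4945 libraries 2, 4 and 6, against 8.86, 6.93 and 14.7 CPM in DMSO libraries 1, 3 and 5. On average it stood at 0.622 ± 0.272 CPM with CX-4945 and 10.2 ± 4.05 CPM with DMSO (SD, n = 3 each), 16.4-fold lower with the inhibitor. No CX-4945 library reached a DMSO library. Behind the means stood 47 reads with CX-4945 and 725 with DMSO. The gene overlaps the antisense gene E130003G02Rik (named Grin1os in GENCODE M21) at 25291220 to 25298925. Without a stated strand setting, reads of the overlap cannot be assigned to one gene, and 8.21% of the 50-base stretches of Grin1 transcripts occurred also in Grin1os. That gene held 0 uniquely placed exon reads in all 6 libraries.

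The promoter of Grin1 is shown for a motif that it holds 2 times over. The run is the 250 bases before the RefSeq start (chr2:25319188-25319437, minus strand, GRCm38.p6), with capitals at CACGTG, a palindrome that holds ACGTG on both strands.
Grin1: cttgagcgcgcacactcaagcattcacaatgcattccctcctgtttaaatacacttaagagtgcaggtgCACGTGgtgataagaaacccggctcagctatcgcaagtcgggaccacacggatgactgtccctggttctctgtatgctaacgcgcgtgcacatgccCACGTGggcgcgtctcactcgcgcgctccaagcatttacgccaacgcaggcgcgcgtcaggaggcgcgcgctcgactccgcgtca
ACGTG was found in 16.6% of 32851 RefSeq promoter windows of this length, TTCNNNGAA in 7.02% and AGGTCA in 14.0%. The Grin1, Etnk2 and Tifab windows held neither of the last motifs, and the Etnk2 and Tifab windows held no ACGTG. The promoter of Cd93 was not analysed here. Such a match describes the letters of the window and is not a binding site.

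Tifab (chromosome 13, 56173703 to 56178885, minus strand) had 0.323, 0.265 and 0.449 CPM in CX-4945 libraries 2, 4 and 6, against 4.05, 3.17 and 8.10 CPM in DMSO libraries 1, 3 and 5. These rest on 26 reads in all with CX-4945 and 364 with DMSO, and the groups did not overlap. The means were 0.346 ± 0.0942 CPM with CX-4945 and 5.11 ± 2.63 CPM with DMSO (SD, n = 3 each), 14.8-fold lower with the inhibitor. By CPM on the plain library total, the scale of the 10-fold rule, its drop was 14.1-fold, the smallest of the 5. Among genes with a DMSO mean no lower than that of Tifab (4.98 CPM on this scale), the one just outside the rule was Adm. It encodes the peptide adrenomedullin and had a higher level, 3.67 CPM with CX-4945 and 36.6 CPM with DMSO, 9.98-fold lower.

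**Figure D1:**
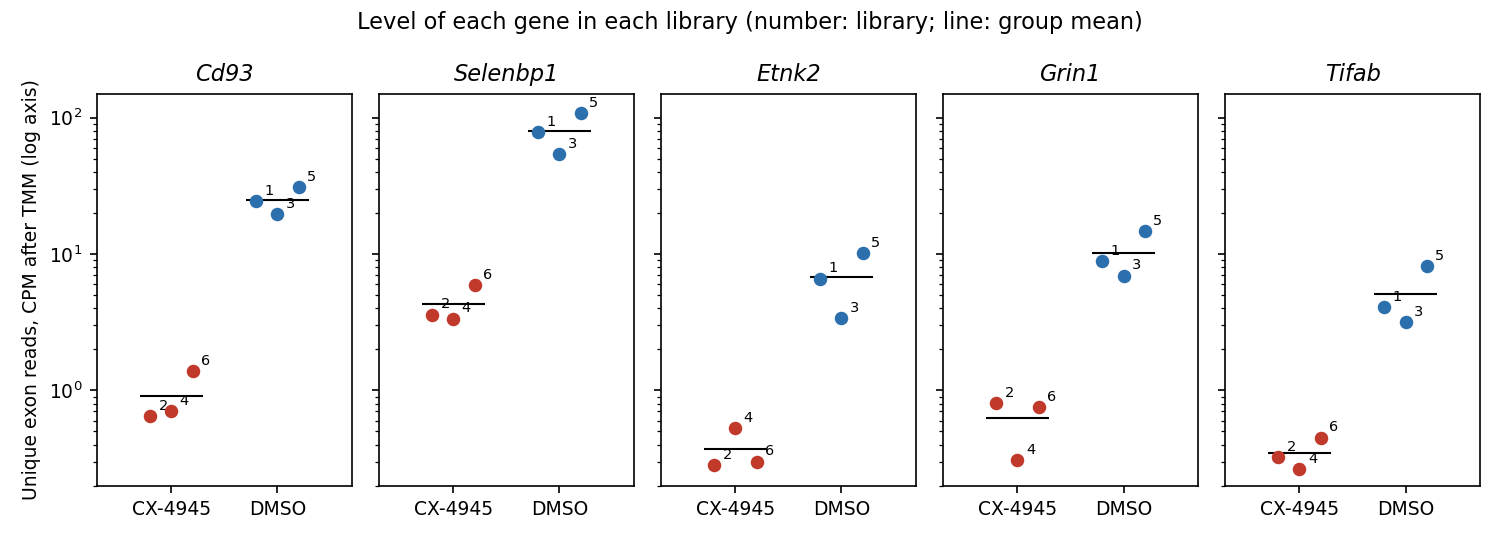
Level (CPM after TMM scaling, log axis) of each gene in every library, CX-4945 left of DMSO; numbers name the libraries and lines mark group means. Every CX-4945 library lies below every DMSO library; the gap is widest for Cd93, at 0.912 CPM with CX-4945 and 25.0 CPM with DMSO on average.

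All 5 genes passed the filter on low counts through their DMSO libraries. The cutoff of 0.412 CPM was reached in all 3 CX-4945 libraries by Cd93 and Selenbp1, in 2 by Grin1 and in 1 by Etnk2 and Tifab. The groups did not overlap for 69.7% of all genes tested, and for 34.8% with CX-4945 the lower. All 5 genes were among the 34.8%, and nothing is read from this, since the rule used the same values. Compared per kilobase of exon, the level with CX-4945 was highest for Selenbp1, at 1.48 to 2.59 CPM per kilobase, while the other 4 genes lay between 0.0319 and 0.207. Among these 4, Cd93 (0.0966 to 0.207) lay above Grin1 (0.0319 to 0.0831) in every library, and Etnk2 and Tifab overlapped both. With DMSO it was again highest for Selenbp1 (35.2 ± 11.8 CPM per kilobase), then for Cd93 (3.74 ± 0.855; SD, n = 3 each). Etnk2 (1.47 ± 0.745), Tifab (1.46 ± 0.751) and Grin1 (1.05 ± 0.418) followed, and their DMSO libraries overlapped at 0.741 to 2.23, 0.907 to 2.32 and 0.714 to 1.52, so their order is not settled. The authors' deposited table gives mean RPKM values of 0.0868 with CX-4945 and 1.42 with DMSO for Grin1, above its 0.958 for Etnk2 and 0.951 for Tifab with DMSO. Uniquely placed reads set against the whole exon length understate Selenbp1, whose transcripts share stretches with Selenbp2. Grin1 shares stretches mostly with the antisense gene Grin1os at its own locus, and the direction of any error there is not known.

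Within the DMSO group the 5 genes shared an order. Library 5 was the highest and library 3 the lowest for each of them, with library 1 between. The ratio of library 5 to library 3 was 1.58 for Cd93, 1.99 for Selenbp1, 3.01 for Etnk2, 2.12 for Grin1 and 2.55 for Tifab. The rule used group means and not this order. Among all other tested genes 28.9% had it, and 26.8% among the 6438 whose DMSO mean lay in the range of the 5 genes. Of those, 105 were over 4-fold lower with CX-4945, and 94 of them (89.5%) had the order 5, 1, 3. The opposite order, library 3 highest and library 5 lowest, was held by 2 of the 105. Of 19 genes over 4-fold higher with CX-4945 at a like level, 0 had the order 5, 1, 3 and 12 (63.2%) had its opposite. In DMSO library 3, steeply falling genes thus lay nearer to their CX-4945 levels than in library 5. Summed marker levels also differed between DMSO libraries 1, 3 and 5, with 5468, 5218 and 5393 CPM for CD4 T cells, 14.3, 12.9 and 22.1 CPM for B cells and 23.2, 24.1 and 16.5 CPM for monocytes and macrophages. The sums in libraries 1, 3 and 5 were 20.7, 18.2 and 24.0 CPM for dendritic, 112, 92.5 and 113 CPM for endothelial, 5.93, 4.05 and 7.85 CPM for platelet and 12.5, 9.77 and 14.5 CPM for erythroid markers. These 4 lists and the B cell list had the order 5, 1, 3, whereas neuronal markers (10.4, 13.0 and 9.58 CPM) and those of monocytes and macrophages had its opposite. Neutrophil markers (0.836, 0.501 and 0.0424 CPM) and the CD4 T cell list had neither order. A list could hold both orders. Batf3, which led the dendritic sum (9.39 CPM in library 3, 16.3 CPM in library 5), had the order 5, 1, 3, as did Flt3 and Zbtb46. Itgax (3.17 CPM in library 3, 1.74 CPM in library 5) and Xcr1 (1.80 and 0.721 CPM) had its opposite. The erythroid sum was mainly Epor, and Klf1 of that list shared its order 5, 1, 3. The part of the listed cell types in the order was not tested.

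With CX-4945 the 5 genes had no common order. Library 6 was the highest for Cd93, Selenbp1 and Tifab, library 4 for Etnk2 and library 2 for Grin1. Library 6 was also the highest for 75 of the 105 genes over 4-fold lower (71.4%), against 38.7% of genes of like DMSO level and 39.7% of all other tested genes. Range within that group ran from 1.69-fold for Tifab to 2.61-fold for Grin1, on counts as low as 6 and 7 reads.

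**Figure D2:**
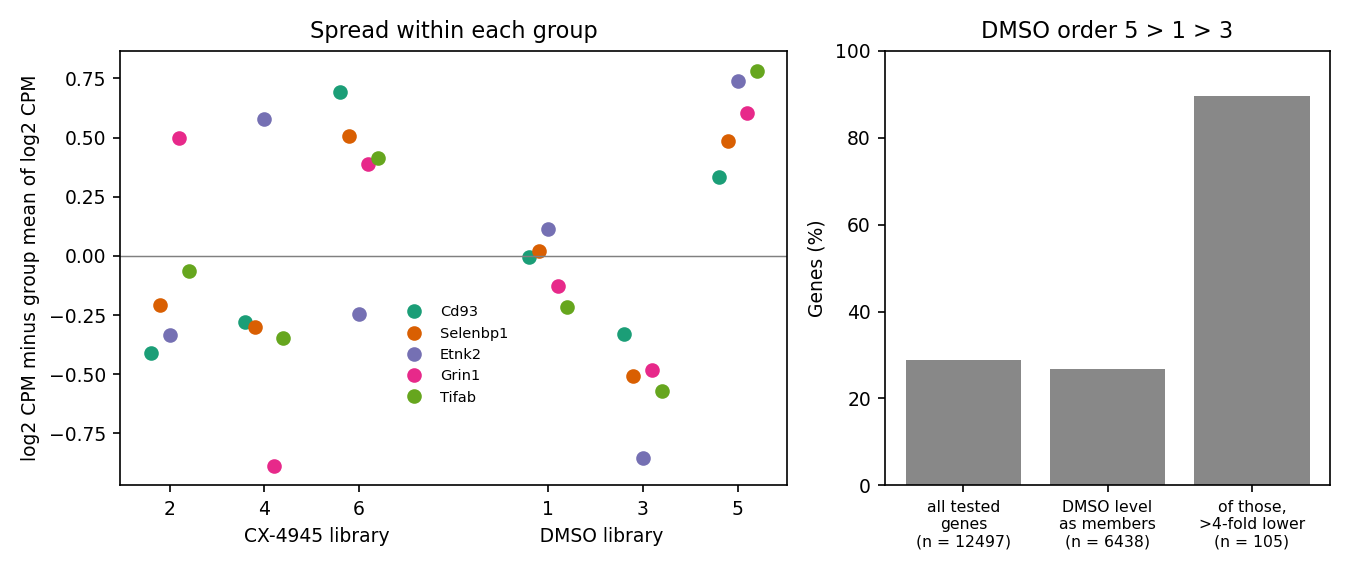
Left, log2 CPM of each gene in each library minus its group mean, CX-4945 libraries left of DMSO libraries; right, the percentage of other tested genes whose DMSO libraries fell in the order 5, 1, 3. All 5 genes were highest in DMSO library 5 and lowest in library 3, as were 89.5% of 105 genes of like level over 4-fold lower with CX-4945, against 28.9% of all tested genes.

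Likeness of pattern was measured as the Euclidean distance between log2(CPM + 0.5) profiles over the 6 libraries, each centred on its own mean. The comparison covered 10794 other tested genes with a DMSO mean of at least 1 CPM, predicted gene models left out. Cd93 and Selenbp1 were nearer to each other (distance 0.307) than either was to any of these genes, although they fell 27.4-fold and 18.7-fold. Their nearest other genes were the same 3, Gipr, a receptor for an incretin hormone, Ptpn14, a tyrosine phosphatase, and Abcb9, a lysosomal peptide transporter. Gipr averaged 8.90 CPM with CX-4945 and 207 CPM with DMSO. The nearest gene to Etnk2 was Serpinb5 (distance 0.618), with Asb16 also among its nearest 3 (0.676). Fgf11 (0.381) and Dpf1 (0.408) were the nearest to Grin1. Tifab lay nearest to Fam114a1, to Zic2, a zinc finger transcription factor gene, and to Tet1, which encodes a dioxygenase that oxidises methylated DNA (distances 0.229, 0.308 and 0.345). Tet1 averaged 2.13 CPM with CX-4945 and 14.7 CPM with DMSO. The added 0.5 CPM exceeded the CX-4945 means of Tifab (0.346 CPM) and Etnk2 (0.371 CPM), so a near pattern is not an equal drop. By ratio of mean CPM, Fam114a1, Zic2 and Tet1 fell 7.45-fold, 9.49-fold and 6.90-fold, against 14.8-fold for Tifab. Serpinb5 fell 6.62-fold, against 18.1-fold for Etnk2. The correlations behind these 15 places were all 0.987 to 0.999 over 6 libraries that share the gap between groups. Ranked by Pearson correlation instead, 0 of the 15 choices remained, so the named genes rest on the measure.

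**Figure D3:**
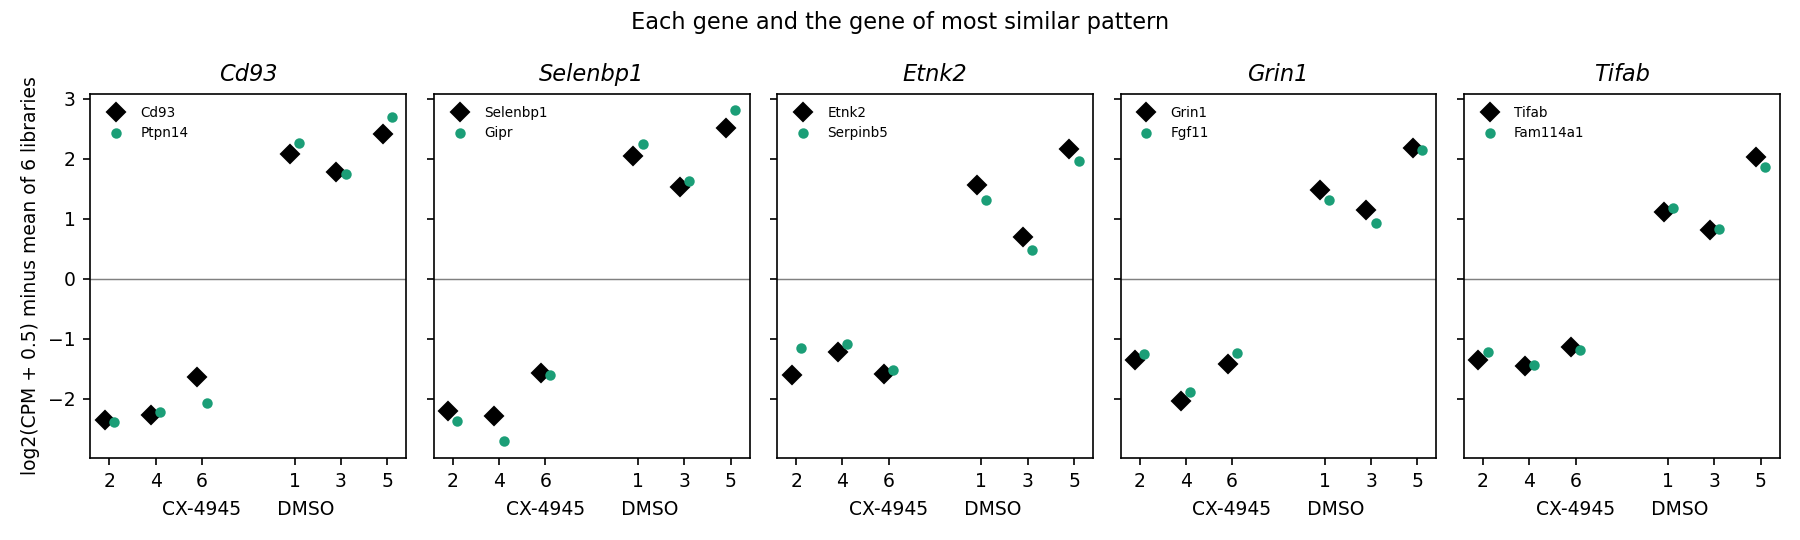
Level of each gene (black diamonds) and of the gene of most similar pattern (green circles) in every library, as log2(CPM + 0.5) minus the mean over the 6 libraries, CX-4945 libraries left of DMSO libraries. The circles lie closest to the diamonds for Tifab, where Fam114a1 is at a distance of 0.229, and furthest for Etnk2, where Serpinb5 is at 0.618.

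Genes next to the 5 on the chromosome behaved unevenly. Of the 10 nearest tested genes on either side, 5 were higher and 3 lower with CX-4945, against 30.6% and 31.3% of all genes tested. The gene beside Cd93, at 28451 bases, was Thbd (chromosome 2, 148404471 to 148408188), which encodes thrombomodulin, a receptor that turns thrombin towards activation of protein C. Thbd belongs to the same small family of C-type lectin-like receptors as Cd93. It had 0.363, 0.265 and 0.225 CPM in CX-4945 libraries 2, 4 and 6, against 4.26, 3.01 and 4.33 CPM in DMSO libraries 1, 3 and 5. All CX-4945 values lay below the DMSO values, and Thbd fell 13.4-fold (log2 fold change -3.74 ± 0.27 SE, edgeR adjusted p = 2.91e-05). This rests on 21 reads with CX-4945 and 276 with DMSO. No CX-4945 library reached the filter cutoff of 0.412 CPM, so Thbd was tested through its DMSO libraries. On the other side of Cd93, Nxt1, a nuclear export cofactor gene, rose 1.27-fold (edgeR adjusted p = 0.00403).

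Plekha6, 60136 bases before Etnk2, also fell, 5.54-fold. It averaged 0.580 ± 0.273 CPM with CX-4945 and 3.29 ± 0.701 CPM with DMSO (SD, n = 3 each; edgeR adjusted p = 0.000332). Tifab lies between H2afy, which encodes the histone variant macroH2A1, and Il9, a T cell cytokine gene, and these 2 moved in opposite directions. H2afy averaged 647 CPM with CX-4945 and 1269 CPM with DMSO, and fell 1.96-fold (edgeR adjusted p = 0.000202). Il9, 300391 bases away, averaged 14.8 CPM with CX-4945 and 0.784 CPM with DMSO, and rose 18.8-fold (edgeR adjusted p = 1.13e-05).

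Around Selenbp1 and Grin1 no neighbour fell. Psmb4, a proteasome subunit gene, and Rfx5, a regulator of MHC class II genes, flank Selenbp1. Psmb4 averaged 289 CPM with CX-4945 and 281 CPM with DMSO (edgeR adjusted p = 0.578). Rfx5 rose 1.16-fold (edgeR adjusted p = 0.0205), and missed the threshold when CX-4945 library 2 or 6 or DMSO library 1 was left out (edgeR adjusted p 0.0560 to 0.0771). Beside Grin1, Anapc2, a subunit gene of the anaphase-promoting complex, rose 1.20-fold, and Man1b1 averaged 96.6 CPM with CX-4945 and 97.0 CPM with DMSO (edgeR adjusted p = 0.927). Snrpe, beyond Etnk2, rose 1.25-fold.

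**Figure D4:**
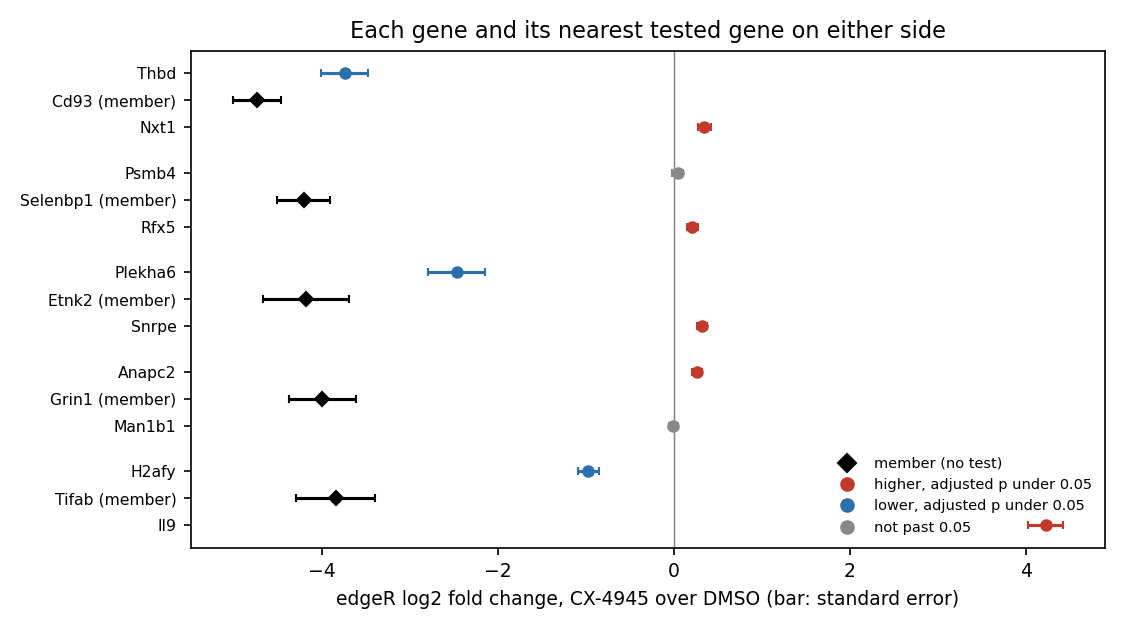
Fitted log2 fold change of each gene (diamonds, not tested) and of the nearest tested gene on either side (circles), CX-4945 over DMSO, with standard errors; rows follow the chromosome within each block. Thbd at -3.74 and Plekha6 at -2.47 fell beside Cd93 and Etnk2, while Il9 at 4.23 rose beside Tifab.

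The families and pathways of the 5 genes held 61 other tested genes, of which 16 were higher and 21 lower with CX-4945 (26.2% and 34.4%, against 30.6% and 31.3% of all genes tested). These shares lie near the background, and the counts of each single list are to be read against the same background. In the family and partners of Cd93, 4 of 6 tested genes fell, 1 rose and 1 did not pass, with a median log2 fold change of -0.57, against 0.00 over all genes. Besides Thbd, Igfbp7, a secreted ligand of CD93, fell 1.69-fold, to 2.46 ± 0.587 CPM with CX-4945, against 4.13 ± 0.397 CPM with DMSO (SD, n = 3 each; edgeR adjusted p = 0.0105). Dag1, the dystroglycan gene, fell 1.38-fold and the integrin gene Itga5 1.60-fold. The riser was Itgb1, at 1.16-fold, no longer past the threshold when CX-4945 library 4 or 6 or DMSO library 1 was left out (edgeR adjusted p 0.0540 to 0.0646). Of the other family members, Clec14a had 0 reads in all, Cd248 9 reads with CX-4945 and 8 with DMSO, and Mmrn2, an extracellular ligand of CD93, 4 with CX-4945 and 2 with DMSO. The complement genes C1qa, C1qb and C1qc, whose product was once taken for a ligand of CD93, had at most 5 reads in either group.

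In sulfur metabolism 3 of 12 tested genes rose, 4 fell and 5 did not pass, with a median log2 fold change of 0.07. Sqrdl, sulfide quinone oxidoreductase, averaged 8.88 ± 0.972 CPM with CX-4945 and 21.1 ± 0.371 CPM with DMSO (SD, n = 3 each), 2.38-fold lower (edgeR adjusted p = 3.61e-05). Mpst, which makes sulfide from mercaptopyruvate, fell 1.87-fold, Cbs, cystathionine beta-synthase, fell 2.47-fold to 1.00 CPM with CX-4945, and the aminotransferase Got1 fell 1.74-fold. Mat2a and Ahcy, which make S-adenosylmethionine and clear S-adenosylhomocysteine, rose 1.69-fold and 1.24-fold. Got2 rose 1.12-fold, and missed the threshold narrowly with no filter on low counts, and also when CX-4945 library 2, 4 or 6 or DMSO library 3 or 5 was left out (edgeR adjusted p 0.0760 to 0.0943).

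Etnk2 has a paralog that did not pass the test. Etnk1, the other ethanolamine kinase gene, had 295, 289 and 299 CPM in CX-4945 libraries 2, 4 and 6, against 289, 283 and 320 CPM in DMSO libraries 1, 3 and 5 (edgeR adjusted p = 0.83). The groups of Etnk1 overlapped. Of 16 tested genes of ethanolamine and choline phospholipid synthesis 4 rose, 4 fell and 8 did not pass, with a median log2 fold change of -0.10. Pcyt1b, which encodes an isoform of the regulatory enzyme of the choline branch, had 2.62, 3.54 and 2.32 CPM with CX-4945 and 9.82, 9.23 and 10.9 CPM with DMSO, 3.55-fold lower (edgeR adjusted p = 6.41e-05). Its paralog Pcyt1a rose 1.39-fold, and the choline kinase gene Chka 1.35-fold. Ept1, the ethanolamine phosphotransferase, rose 1.23-fold, while Cept1, which acts in both branches, fell 1.45-fold. Pcyt2, which encodes the matching enzyme of the ethanolamine branch, fell 1.20-fold and the transporter gene Slc44a2 1.14-fold. Slc44a1 rose 1.17-fold, which did not hold when CX-4945 library 2 or 4 or DMSO library 1 or 5 was left out (edgeR adjusted p 0.0560 to 0.0885).

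Of the genes for partner subunits of Grin1, Grin2d passed the filter on low counts and the others did not. Grin2a had 0 reads in all 6 libraries, Grin2b 3 reads with CX-4945 and 1 with DMSO, and Grin2c 3 with CX-4945 and 2 with DMSO. Grin2d averaged 1.60 ± 0.235 CPM with CX-4945 and 1.03 ± 0.278 CPM with DMSO (SD, n = 3 each; edgeR adjusted p = 0.0583). Grin3a had 26 reads with CX-4945 and 34 with DMSO, and Grin3b 40 with CX-4945 and 16 with DMSO, too few to be tested. Of 11 tested genes of ionotropic glutamate receptors and their partners 1 rose, 6 fell and 4 did not pass, with a median log2 fold change of -0.49. Among all genes tested, 30.6% were higher and 31.3% lower. Grina, a membrane protein gene once linked to NMDA receptors, averaged 122 ± 8.68 CPM with CX-4945 and 240 ± 30.2 CPM with DMSO (SD, n = 3 each), 1.97-fold lower (edgeR adjusted p = 8.64e-05). The scaffold genes Dlg2, Dlg3 and Dlg4 fell 2.49-fold, 1.93-fold and 2.03-fold, and the kainate receptor gene Grik5 fell 1.54-fold. Srr, which makes the co-agonist D-serine, fell 1.41-fold, a change past the threshold only while CX-4945 libraries 2 and 4 and DMSO libraries 1 and 5 were all kept (edgeR adjusted p otherwise 0.0562 to 0.0792). The riser was Slc1a4, a neutral amino acid transporter gene, at 2.06-fold.

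For the pathway around Tifab, 7 of 16 tested genes rose, 3 fell and 6 did not pass, with a median log2 fold change of 0.12. Traf6, the ligase that TIFAB restrains, had 316, 324 and 333 CPM in CX-4945 libraries 2, 4 and 6, against 203, 222 and 199 CPM in DMSO libraries 1, 3 and 5. The groups did not overlap, and Traf6 rose 1.56-fold (log2 fold change 0.64 ± 0.06 SE, edgeR adjusted p = 6.02e-05). Chuk and Map3k7, kinase genes downstream of it, rose 1.49-fold and 1.46-fold, and Traf2 rose 1.36-fold. Ube2n, the ubiquitin-conjugating enzyme that works with TRAF6, rose 1.48-fold and Tab3 1.31-fold. Irak1 rose 1.11-fold, short of the threshold when CX-4945 library 2 (edgeR adjusted p = 0.0983) or 6 (0.0658) was left out. Alpk1, the kinase upstream of TIFA, fell 2.89-fold on 30 reads with CX-4945 and 85 with DMSO (edgeR adjusted p = 0.0134). Tifa itself held 23 reads with CX-4945 and 12 with DMSO and was not tested. Ikbkg fell 1.29-fold. Myd88 fell 1.19-fold, and missed the threshold by DESeq2, with no filter on low counts, and in fits without CX-4945 library 2, 4 or 6 or DMSO library 1 or 3 (adjusted p over these, 0.0576 to 0.134).

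**Figure D5:**
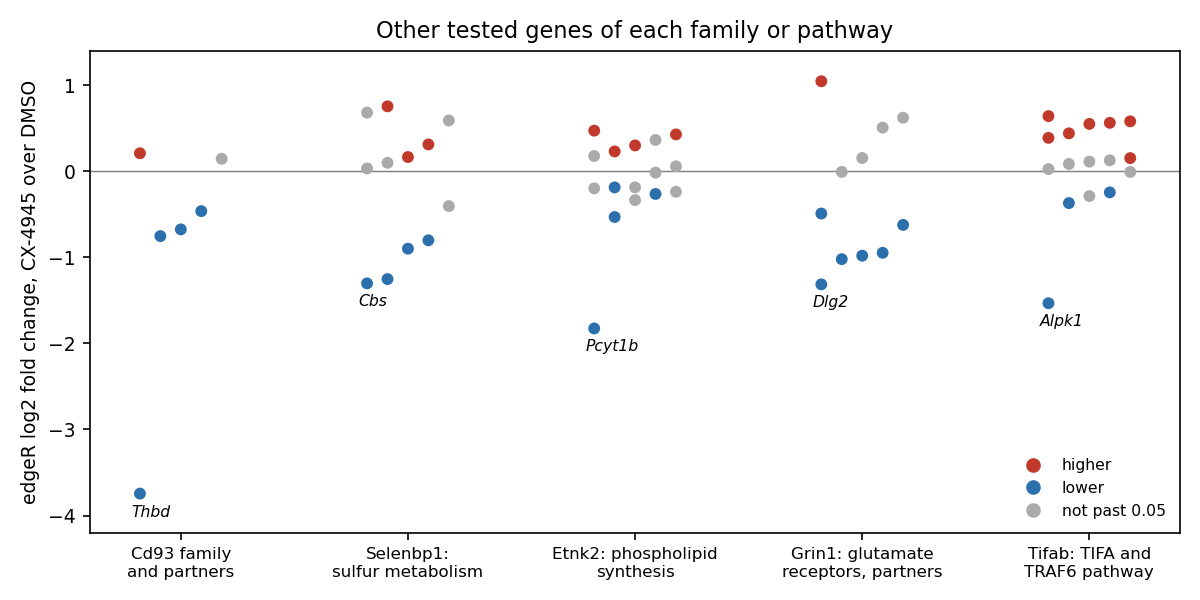
Fitted log2 fold change, CX-4945 over DMSO, of every other tested gene in the family or pathway of each of the 5 genes; color marks the edgeR call at an adjusted p of 0.05, and the lowest gene of each list is named. Thbd, at -3.74, lies furthest from 0, and the other 4 lists reach no lower than -1.83.

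Marker lists were summed for the labelled cells and for other types, some of which are known for 1 of the 5 genes. Calls in these short lists stand against 30.6% higher and 31.3% lower among all genes tested. The CD4 T cell list, whose 10 genes were all detected, summed to 3719 to 3767 CPM with CX-4945 and 5218 to 5468 CPM with DMSO, with 8 of 10 genes lower and Lck the largest part of it over the 6 libraries (668 CPM with CX-4945 and 715 CPM with DMSO). Endothelial markers summed to 31.7 to 44.5 CPM with CX-4945 and 92.5 to 113 CPM with DMSO, nearly all of it Pecam1 (33.7 CPM with CX-4945 and 102 CPM with DMSO), which T cells also express, and 1 of 3 tested genes was lower. Of the defining endothelial genes, Emcn had 0 reads, Cdh5 2 reads with CX-4945 and 0 with DMSO, and Tek 4 with CX-4945 and 2 with DMSO. Kdr had 35 reads with CX-4945 and 29 with DMSO, and Egfl7 235 reads with CX-4945 and 207 with DMSO. Monocyte and macrophage markers summed to 20.3 to 37.0 CPM with CX-4945 and 16.5 to 24.1 CPM with DMSO, with 1 of 7 tested genes higher and 2 lower, and the groups overlapped. Neuronal markers summed to 12.8 to 16.3 CPM with CX-4945 and 9.58 to 13.0 CPM with DMSO, nearly all Syn1, with 0 of 1 tested genes past the threshold, and Syt1, Nefl and Stmn2 had 0 reads. Erythroid markers summed to 4.33 to 6.03 CPM with CX-4945 and 9.77 to 14.5 CPM with DMSO, mainly Epor, with 2 of 2 tested genes lower. The B cell list summed to 13.7 to 14.8 CPM with CX-4945 and 12.9 to 22.1 CPM with DMSO, with 1 of 6 tested genes lower. Dendritic markers, led by Batf3 (5.38 CPM with CX-4945 and 12.6 CPM with DMSO), stayed at or below 12.3 CPM with CX-4945 and at or above 18.2 CPM with DMSO, with 2 of 5 tested genes lower and Siglech at 0. Platelet markers, led by Itga2b, summed to 3.43 to 4.29 CPM with CX-4945 and 4.05 to 7.85 CPM with DMSO, with 1 of 2 tested genes lower. Neutrophil markers, led by S100a9, stayed at or below 0.847 CPM in each library. The part of any such cells in the levels of the 5 genes was not tested.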

How the data were processed

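The table holds, for 3 CX-4945 and 3 DMSO libraries, whole-number counts of exon reads placed at a single locus, per the file headers. The labels' protocols name Trizol for RNA extraction and Genewiz for the Illumina libraries. Alignment used mm10, per the submitters' processing notes. Aligner, annotation release and strand setting are not given. Group means in RPKM and exon lengths are the authors' deposited values. Columns name a group and not a single sample, so 1 measure per library was kept, and another 84 per-library columns were not used.

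Genes passing filterByExpr (minimum count 10, minimum total 15) were tested with edgeR 4.0.16 in R 4.3.3. Settings were TMM, a two-sided quasi-likelihood F test, Benjamini-Hochberg over 12502 genes and a threshold of 0.05. The code was checked on simulated counts with the same dispersion for all genes and few genes changed. That setting is unlike these data, so the check gives no error rate for them. Folds of the 5 genes are ratios of mean CPM after TMM, other folds those of the fit. Start positions had 1 added. Promoters are RefSeq's (GRCm38.p6), where 4 of the 5 genes matched, and transcripts GENCODE M21's. The 3-read floor covers counting error only. The 5 genes, 5 family lists and 9 marker lists were chosen with earlier results of these data known. Named are up to 4 called genes per family list by adjusted p with close paralogs, the 3 most similar patterns, the nearest tested neighbours, the gene just outside the rule and the leading gene of each marker list. Other named genes were added after their values were seen, and some genes that the rule names are not reported here. Alternatives were other size factors and filters, DESeq2 1.42.0, limma 3.58.1 (voom) and leaving out each library.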

Additional observations from a re-analysis of the deposited data

How the results depend on the processing

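The drop of each of the 5 genes kept its direction under every alternative run. Nothing is read from this, since the genes were chosen for the drop in these same libraries. With groups that do not overlap, leaving out a library could not reverse it. The shifts in the size of the drop between settings stayed within the spread between libraries. Leaving out each library in turn gave log2 ratios of -5.21 to -4.58 for Cd93, -4.52 to -3.95 for Selenbp1, -4.53 to -3.75 for Etnk2, -4.26 to -3.67 for Grin1 and -4.14 to -3.39 for Tifab. Other scalings, group medians and the fitted value gave -5.11 to -3.56 over the 5 genes. The planned count of exon reads placed at several loci was not run, because 1 measure per library was kept. Over all genes, 3107 to 3954 were higher and 3212 to 4039 lower when a library was left out, and 3228 to 3839 and 3307 to 3904 under the other alternatives. Calls among the family and pathway genes numbered 37, and 31 to 41 under the alternatives. Ranking similar patterns by Pearson correlation kept 0 of 15 choices. Of 70 list and neighbour genes, 17 changed their call in at least 1 setting and 0 reversed. No paired analysis was possible because the columns of the table carry no replicate numbers of the labels. Depth limits Etnk2 and Tifab most, with 27 and 26 reads over the CX-4945 libraries.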
